A study of Mus musculus with 6 samples.

Results

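The 10 genes described here code for progranulin (PGRN, gene Grn), for receptors that bind it or carry it to the lysosome, and for proteins it works with there. They were chosen by name, with earlier results of these data known. The set holds the sorting receptors Sort1, Lrp1, M6pr and Igf2r, the TNF receptors Tnfrsf1a and Tnfrsf1b, and the lysosomal partners Psap, Tmem106b and Gpnmb beside Grn itself. They are 10 of the 54532 genes in the expression table, and all 10 were found and passed the filter on low values. The libraries came from bone marrow neutrophils of C57BL/6J mice, 3 from wild-type (WT) and 3 from progranulin knockout (PGRN KO) cultures. In every culture 2000000 cells were rested for 2 h and then met live Candida albicans for 6 h, so stimulated cells were compared with stimulated cells, and no unstimulated neutrophils are analysed here. The sample labels give a multiplicity of infection of 1:1, and the study's text gives another value. The knockout mice were bought from the Jackson Laboratory and the WT mice from Chongqing Medical University, so that genotype and colony cannot be told apart. The age and number of mice behind each culture and the part of Grn that the knockout allele lacks were not stated in the sources used. If the cultures were not from separate mice, the p-values measure only a technical spread between these samples.

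Progranulin is a secreted glycoprotein that proteases cut into granulin peptides. Sortilin, coded by Sort1, takes it up from outside the cell and delivers it to the lysosome, and prosaposin, coded by Psap, binds progranulin and carries it along another route through LRP1 and the mannose 6-phosphate receptors. In the lysosome it acts with prosaposin, whose saposin peptides help enzymes to degrade sphingolipids. Progranulin has also been reported to bind both TNF receptors. Loss of progranulin is known for lysosomal defects in neurons and microglia, where TMEM106B and GPNMB are studied beside it, and neutrophils carry it together with the serine proteases that cut it and the inhibitor SLPI that protects it.

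Levels are given as FPKM, which are fragments scaled to gene length and library size, and can be compared between genes. The 6 libraries held 17087344 to 18821091 fragments on genes. Log2 values correlated across genes at 0.991 to 0.992 within a genotype and at 0.978 to 0.981 between genotypes. The neutrophil label was borne out by the 10 neutrophil markers, which summed to 67342 to 71953 FPKM in WT against 69108 to 78888 in PGRN KO. Of those 10 markers 2 (Csf3r and Mmp8) were lower in PGRN KO and 8 did not pass the test, and both lost their calls with plain totals and quantile normalization. In the 6 fits without 1 library, Csf3r lost its call in 5 and Mmp8 in 4. The 10 macrophage and monocyte markers summed to 493 to 500.4 FPKM in WT against 529 to 674 in PGRN KO, with Ly6c2 higher, Ccr2 lower and C1qa, C1qb, C1qc, Mrc1 and Mertk under 0.2 FPKM in every library, of which Mertk was at 0 in all 6. Ly6c2 made up most of both sums (395.9 to 404.6 FPKM in WT and 441.7 to 581.7 in PGRN KO). Promyelocyte markers summed to 129 to 144 FPKM in WT and to 609 to 670.4 in PGRN KO, and all 5 were higher. The summed levels of B and plasma cell markers were 23.3 to 25.5 against 66.9 to 82.2 FPKM, those of basophil and mast cell markers 2.04 to 2.47 against 11.01 to 12.5, and those of erythroid markers 0.557 to 1.56 against 3.64 to 3.83. Dendritic cell markers summed to 0.759 to 0.915 FPKM in WT against 0.419 to 0.487 in PGRN KO, and T and NK cell markers to 0.272 to 0.779 and 0.248 to 0.386, with Cd3e at 0 in all 6 libraries. The part of these other cells in the results was not tested. In such bulk libraries fewer cells of a type and less RNA per cell cannot be told apart.

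Of the 10 genes, 1 (Sort1) was higher and 9 were lower in PGRN KO at an adjusted p under 0.05 from limma, against 17.9% of all 14807 genes tested (7.94% higher and 9.95% lower). The WT and PGRN KO libraries did not overlap for any of the 10, which was so for 37.7% of all genes (18.1% higher and 19.6% lower). The median log2 fold change of the 10 genes was -0.34, and that of all tested genes was 0.0026. Grn, 1 of the 9 lower genes, is the targeted gene, so its call, its lack of overlap and its share in the median reflect the knockout itself. Fold changes are PGRN KO over WT on log2(FPKM + 1), a scale that understates the change of low genes. A log2 fold change given beside a ratio or percent of means is thus not its exact log2.

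**Figure D1:**
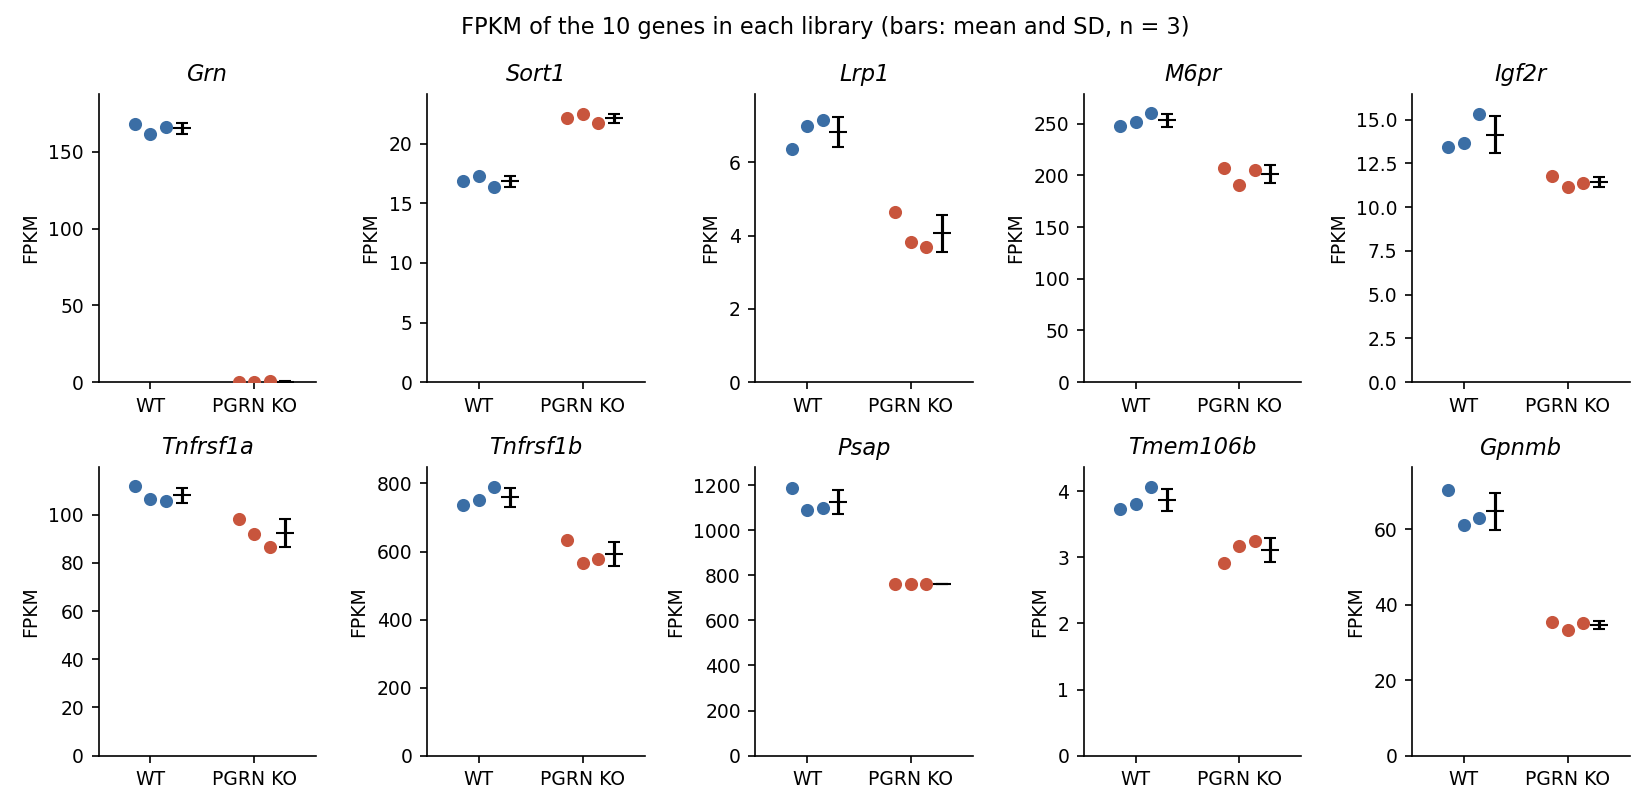
FPKM (linear axis from 0, a scale of its own for each gene) of the 10 genes in 3 WT (blue) and 3 PGRN KO (red) libraries, with 1 point per library and bars for the mean and SD. Grn fell to near 0, Sort1 was higher in every PGRN KO library, and the other 8 genes were lower in every PGRN KO library than in any WT library.

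Grn, the targeted gene (ENSMUSG00000034708, GRCm38 chromosome 11 from 102430315 to 102437048, plus strand), stood at 168, 161 and 166 FPKM in the WT libraries and at 0.242, 0.206 and 0.747 in the PGRN KO libraries. All 3 PGRN KO libraries were far below all WT libraries, and the library of PGRN KO replicate 6 was the highest of them. The WT mean was 165 ± 3.63 FPKM (SD, n = 3) and the PGRN KO mean 0.398 ± 0.302 (SD, n = 3), a ratio of 415. The log2 fold change was -6.91 (standard error 0.14, limma adjusted p = 1.05e-05), smaller in size than the log2 of that ratio because 1 was added to each FPKM value. With voom on fragments the log2 fold change of Grn was -8.76. In fragments, the PGRN KO libraries held 15 (exact Poisson 95% interval 8.40 to 24.7), 13 (6.92 to 22.2) and 51 (38.0 to 67.1) on Grn, where the WT libraries held 9936, 9345 and 9882. The intervals, which cover counting error only, separate replicate 6 from the other two PGRN KO libraries, at 0.452% of the WT mean level against 0.146% and 0.125%. In WT, Grn was the gene with rank 305 by mean FPKM.

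The promoter windows of RefSeq (GRCm38.p6), each of 300 bases around a start, were searched, on either strand, for CACGTG, the core of the CLEAR element that TFEB binds in lysosomal genes, for its longer form TCACGTGA, and for TCATGTG, the M-box of the same factor family. Of the 10 genes 8 matched the table, and Sort1 and M6pr did not. Over all 32851 windows, CACGTG was found in 7.15%, TCACGTGA in 0.974% and TCATGTG in 3.77%. Among the 8 matched genes, which had 9 windows, CACGTG and TCACGTGA were found in Igf2r alone and TCATGTG in Igf2r and Grn. The sequence before Grn is shown with its M-box, read on the reverse strand as CACATGA, 210 bases before the RefSeq start. That before Igf2r is shown with 2 copies of TCACGTGA, 49 and 8 bases before the start, each of which contains the CACGTG that was counted, and with a TCATGTG 92 bases before it. The sequences before Psap and Gpnmb, 2 of the genes with the largest falls, are shown for comparison and held none of these letters. Capitals mark the matches, each line runs 5′ to 3′, and bases that belong to an annotated exon were left out. A match is a run of letters and not a shown binding site.
Grn, chr11:102430257-102430314 (plus strand): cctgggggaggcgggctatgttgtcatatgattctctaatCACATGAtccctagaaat
Igf2r, chr17:12769707-12769956 (minus strand): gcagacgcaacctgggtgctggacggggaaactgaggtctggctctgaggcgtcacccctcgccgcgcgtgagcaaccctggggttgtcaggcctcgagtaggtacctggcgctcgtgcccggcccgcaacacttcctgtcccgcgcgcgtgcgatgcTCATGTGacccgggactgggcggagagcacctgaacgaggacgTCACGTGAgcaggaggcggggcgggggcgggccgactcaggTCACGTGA
Psap, chr10:60277378-60277626 (plus strand): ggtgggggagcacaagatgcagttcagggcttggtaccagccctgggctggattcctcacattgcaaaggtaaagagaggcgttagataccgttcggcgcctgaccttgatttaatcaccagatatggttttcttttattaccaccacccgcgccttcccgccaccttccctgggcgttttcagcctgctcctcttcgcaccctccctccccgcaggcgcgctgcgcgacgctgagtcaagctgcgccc
Gpnmb, chr6:49036268-49036517 (plus strand): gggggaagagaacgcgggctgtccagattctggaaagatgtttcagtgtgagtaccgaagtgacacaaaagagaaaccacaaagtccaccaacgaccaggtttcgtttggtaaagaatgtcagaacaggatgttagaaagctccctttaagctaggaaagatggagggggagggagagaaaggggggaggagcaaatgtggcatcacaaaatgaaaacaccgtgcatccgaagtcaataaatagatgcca

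Sort1 was the only one of the 10 genes that was higher in PGRN KO. Sort1 (ENSMUSG00000068747, chromosome 3 from 108284082 to 108361511, plus strand), the sortilin gene, stood at 16.8, 17.3 and 16.4 FPKM in WT and at 22.1, 22.5 and 21.7 in PGRN KO. The replicates of each genotype lay close together, and the groups were well apart. The means were 16.8 ± 0.473 and 22.1 ± 0.390 FPKM (SD, n = 3 each), so that PGRN KO was at 131% of WT or 0.38 higher on the log2 scale (standard error 0.044, 95% interval 0.27 to 0.48, adjusted p = 0.00271). The difference was larger when libraries were scaled to plain totals of fragments (0.49), and it passed the test in every alternative tried.

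The other 3 sorting receptors were lower. Lrp1 (ENSMUSG00000040249, chromosome 10 from 127538161 to 127621148, minus strand), a large endocytic receptor, stood at 6.38, 6.99 and 7.15 FPKM in WT and at 4.65, 3.84 and 3.70 in PGRN KO. PGRN KO replicate 4 was the nearest to WT, and the groups did not overlap. Lrp1 in PGRN KO was thus at 59.4% of WT, and its log2 fold change, with 1 added to each FPKM value, was -0.63 (standard error 0.087, adjusted p = 0.00480).

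M6pr (ENSMUSG00000007458, chromosome 6 from 122308720 to 122317680, plus strand) codes for the small, cation-dependent mannose 6-phosphate receptor, which sorts tagged enzymes from the Golgi to endosomes. It stood at 248, 252 and 259.9 FPKM in WT and at 207, 191 and 205 in PGRN KO, with every PGRN KO library below every WT library. That put PGRN KO at 79.4% of WT (log2 fold change -0.33, standard error 0.046, adjusted p = 0.00514). Igf2r (ENSMUSG00000023830, chromosome 17 from 12682406 to 12769664, minus strand), the large mannose 6-phosphate receptor that also clears IGF2, stood at 13.4, 13.7 and 15.4 FPKM in WT and at 11.8, 11.2 and 11.4 in PGRN KO. The groups did not overlap, and WT replicate 3 was above the other WT libraries. With PGRN KO at 80.9% of WT, the log2 fold change of Igf2r was -0.28 (standard error 0.062, adjusted p = 0.0246). This call was lost with plain totals of fragments (-0.17, adjusted p = 0.0941) and in 4 of the 6 fits without 1 library (adjusted p 0.0512 to 0.0890), but not without WT replicate 1 or without PGRN KO replicate 4.

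The 2 TNF receptors were both lower as deposited. Tnfrsf1b (ENSMUSG00000028599, chromosome 4 from 145213463 to 145246870, minus strand), the TNF receptor without a death domain, stood at 736, 753 and 789 FPKM in WT and at 633, 566 and 579 in PGRN KO. PGRN KO replicate 4 was the highest of its group and still under the lowest WT library. The level in PGRN KO was 78.1% of WT, or -0.36 on the log2 scale (standard error 0.056, adjusted p = 0.00801), and it lost its call with quantile normalization (-0.19, adjusted p = 0.117). Tnfrsf1a (ENSMUSG00000030341, chromosome 6 from 125349362 to 125362484, plus strand), the death domain receptor for TNF, stood at 112, 106 and 106 FPKM in WT and at 98.3, 92.1 and 86.7 in PGRN KO. The groups were apart, with PGRN KO replicate 4 nearest to WT. At 85.5% of WT it showed the smallest change of the 10 genes (log2 fold change -0.22, standard error 0.056, adjusted p = 0.0352). Tnfrsf1a was at -0.11 and lost its call with quantile normalization (adjusted p = 0.222), plain totals (0.233) and voom (0.193), and also in 5 of the 6 fits without 1 library (0.0682 to 0.112), all but that without PGRN KO replicate 4.

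Among the lysosomal partners, Psap and Gpnmb, but not Tmem106b, passed the test in every alternative tried. All 3 stayed lower with quantile normalization, plain totals and voom, the alternatives that could have turned a direction. Psap (ENSMUSG00000004207, chromosome 10 from 60277627 to 60302597, plus strand), the prosaposin gene, was the most abundant of the 10 genes, at 1186, 1089 and 1098 FPKM in WT against 761, 759 and 763 in PGRN KO. The PGRN KO libraries were nearly equal, and all WT libraries were far above them. Psap in PGRN KO was at 67.7% of WT (1124 ± 53.5 and 760.9 ± 1.80 FPKM, SD, n = 3 each), which was -0.56 on the log2 scale (standard error 0.046, adjusted p = 0.000786). By mean FPKM it had rank 45 of all genes in WT and rank 70 in PGRN KO.

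Gpnmb (ENSMUSG00000029816, chromosome 6 from 49036546 to 49070929, plus strand) codes for a transmembrane glycoprotein of lysosomes and phagosomes. It stood at 70.4, 61.2 and 62.9 FPKM in WT and at 35.4, 33.3 and 35.2 in PGRN KO. Even the lowest WT library was well above all PGRN KO libraries. After Grn, this was the largest change of the 10 genes, to 53.4% of WT (64.8 ± 4.90 and 34.6 ± 1.14 FPKM, SD, n = 3 each), which was -0.88 on the log2 scale (standard error 0.062, adjusted p = 0.000448). Gpnmb is best known from macrophages. Of the 10 macrophage and monocyte markers 5 could be tested, with 1 higher, 1 lower and 3 not past the threshold. The summed level of the 10 was higher in all PGRN KO libraries than in any WT library, as given above. Most of that sum was Ly6c2, so its direction is that of this gene. Ccr2, Adgre1 and Csf1r had lower means in PGRN KO and Ms4a7 a higher one. Ly6c2 was higher (401 ± 4.58 and 521 ± 71.9 FPKM, adjusted p = 0.0447) and Ccr2 lower (3.82 ± 0.219 and 1.73 ± 0.260, adjusted p = 0.00200). Adgre1 (46.3 ± 1.91 and 43.4 ± 2.91), Csf1r (45.6 ± 1.25 and 40.9 ± 2.51) and Ms4a7 (0.477 ± 0.177 and 0.687 ± 0.212) had adjusted p of 0.342, 0.105 and 0.357. The call of Ly6c2 was lost without a filter on low values and without any 1 library except PGRN KO replicate 4 (adjusted p up to 0.140), and the part of these cells in the fall of Gpnmb was not tested.

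Tmem106b (ENSMUSG00000029571, chromosome 6 from 13069759 to 13089269, plus strand) codes for a lysosomal membrane protein whose variants modify disease caused by progranulin loss. It was the lowest of the 10 genes in WT, at 3.74, 3.81 and 4.06 FPKM against 2.91, 3.18 and 3.24 in PGRN KO, from 440 to 482 and 360 to 442 fragments per library. The groups did not overlap in FPKM but did so in fragments, before division by library size. PGRN KO was at 80.4% of WT, which was -0.24 on the log2 scale (standard error 0.064, adjusted p = 0.0419). The call was lost without any of the 6 libraries (adjusted p 0.0619 to 0.114), without a filter on low values (0.0654), with plain totals of fragments (-0.15, 0.143) and with voom (-0.19, 0.107).

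Ordered by mean FPKM, the genes in WT ran Psap, Tnfrsf1b, M6pr, Grn, Tnfrsf1a, Gpnmb, Sort1, Igf2r, Lrp1 and Tmem106b. In PGRN KO the order of the other 9 was the same, with Grn last. None of the 18 pairs of neighbours in the 2 orders had overlapping ranges, and the closest were Sort1 and Igf2r in WT, 1.19-fold apart. In PGRN KO Sort1 was 1.93 times as high as Igf2r. By position, 4 of the 10 genes (M6pr, Tnfrsf1a, Gpnmb and Tmem106b) lie on chromosome 6 and 2 (Lrp1 and Psap) on chromosome 10. Genes that overlap Grn, Sort1, Lrp1 and Igf2r were listed at no more than 9 fragments in any library, and the library kit does not mark strand.

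The size of each change depends on how the libraries were scaled. The library sizes behind the deposited FPKM were smaller than the fragments on genes in WT (the fragments were 1.04 times the size) and larger in PGRN KO (0.954 times). With plain totals of fragments, 7 of the 10 genes passed the test (Sort1 higher and 6 lower) against 20.8% of all genes (14.5% higher and 6.29% lower), and the calls over all genes turned from 1175 higher and 1473 lower to 2147 higher and 933 lower. With voom on the recovered fragments 8 genes passed, against 28.6% of all genes (20.2% higher and 8.46% lower, or 2984 and 1252 genes), and with quantile normalization 8 passed, against 17.2% (7.73% higher and 9.44% lower). Voom took the plain totals of fragments as its library sizes, so it is not a separate scaling. The median log2 fold change of all genes was 0.12 with voom, and relative to it Tnfrsf1a stood at -0.23 and Tmem106b at -0.32. Grn, Sort1, Lrp1, M6pr, Psap and Gpnmb passed in all 15 alternatives, those without 1 library included, and none of the 150 values of the 10 genes changed sign. With groups that did not overlap, a sign could change only with quantile normalization, plain totals or voom. Of the 15, median-of-ratios scaling had the same factor in every library (1.00586) and so nearly repeated the main fit.

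**Figure D2:**
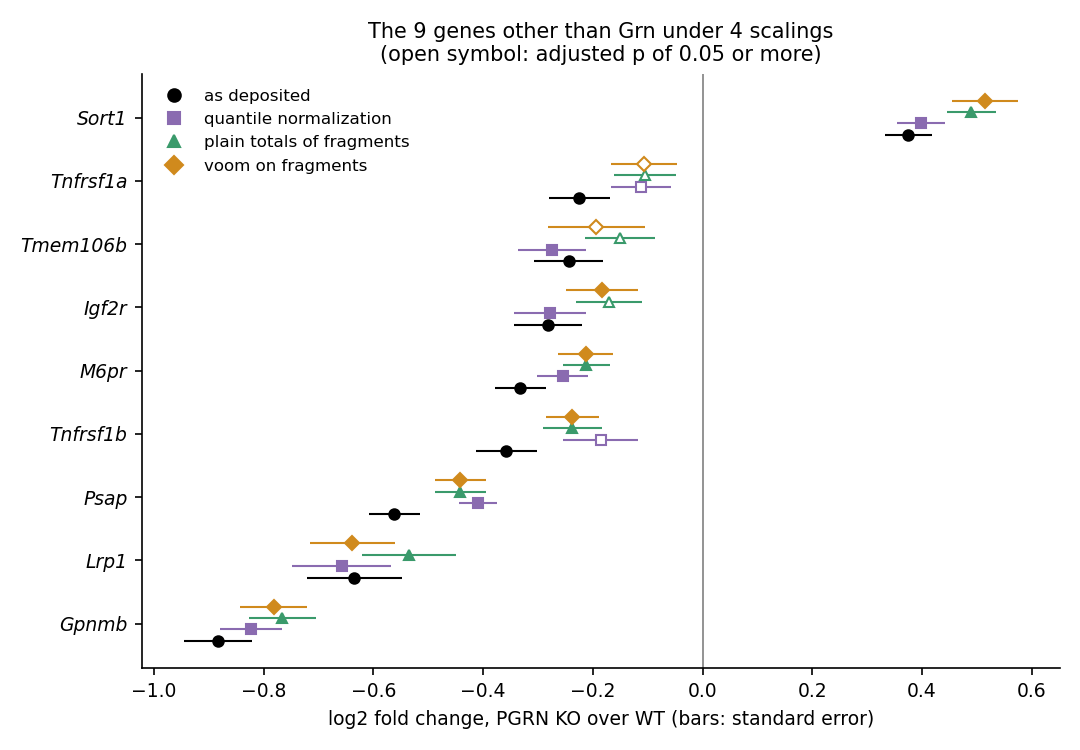
Log2 fold change (PGRN KO over WT, bars show the standard error) of the 9 genes other than Grn with the deposited scaling (circles), quantile normalization (squares), plain totals of fragments (triangles) and voom (diamonds), where open symbols did not pass the test. Sort1 lies to the right of 0 and the other 8 genes to the left under all 4, while Tnfrsf1a, Tmem106b, Igf2r and Tnfrsf1b have open symbols under at least 1 of them. Voom took the plain totals as library sizes, so diamonds and triangles share a scaling.

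Ratios of 2 genes within a library do not depend on the scaling of libraries. With 3 libraries against 3, an exact two-sided permutation test cannot give a p under 0.1, so that these 5 ratios are described by their values. Adjusted p were computed over all 5, of which 2 were added after the values had been seen. The ratio of Tnfrsf1b to Tnfrsf1a was 6.59, 7.07 and 7.45 in WT and 6.44, 6.15 and 6.68 in PGRN KO, and the groups overlapped (exact permutation p = 0.2, 0.25 after Benjamini-Hochberg adjustment). That of Igf2r to M6pr was 0.0542, 0.0542 and 0.0591 in WT and 0.0569, 0.0585 and 0.0556 in PGRN KO, which also overlapped (p = 0.6 by exact permutation, 0.6 adjusted). Psap to Lrp1 ranged from 154 to 186 in WT and from 164 to 206 in PGRN KO, again with overlap (exact permutation p = 0.2, adjusted 0.25).

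Another 2 ratios were added after the values had been seen. Sort1 to Psap, the carrier genes of the 2 routes to the lysosome, was 0.0142, 0.0159 and 0.0149 in WT and 0.0291, 0.0297 and 0.0285 in PGRN KO. The PGRN KO values were all above the WT values, with means of 0.0150 ± 0.000849 and 0.0291 ± 0.000582 (SD, n = 3 each), a log2 difference of 0.96 (exact permutation p = 0.1, adjusted 0.25). As Sort1 was higher and Psap lower in every PGRN KO library, this ratio could only lie apart, so its p tests nothing further. Gpnmb to Psap was 0.0576 ± 0.00161 in WT against 0.0455 ± 0.00140 in PGRN KO (SD, n = 3 each), again without overlap, a log2 difference of -0.34 (exact permutation p = 0.1, adjusted 0.25).

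**Figure D3:**
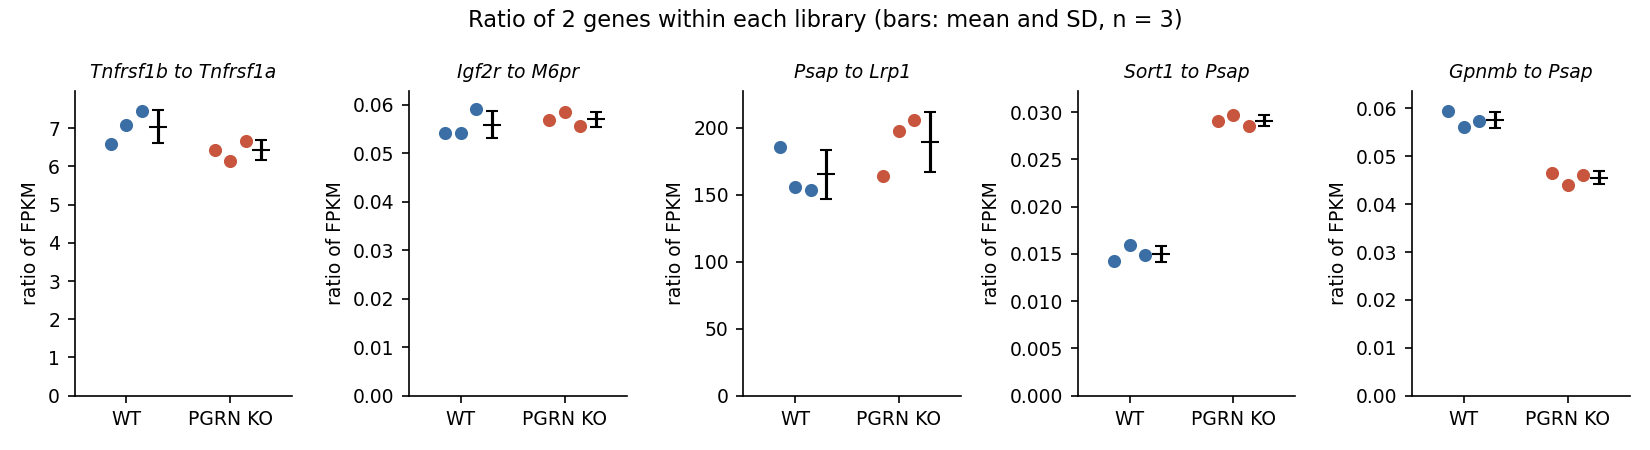
Ratio of the FPKM of 2 genes within each of 3 WT (blue) and 3 PGRN KO (red) libraries (linear axes from 0, bars show the mean and SD). The first 3 ratios overlap between genotypes, Sort1 to Psap is higher in every PGRN KO library and Gpnmb to Psap is lower in every PGRN KO library.

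Of the proteases that cut progranulin and related lysosomal proteases, with the protector Slpi, 11 of 12 genes could be tested, of which 3 were higher, 6 were lower and 2 did not pass (7.94% of all genes higher and 9.95% lower, median log2 fold change -0.21). The 3 higher genes were the neutrophil proteases Prtn3 (37.6 ± 2.25 and 191.6 ± 15.1 FPKM, log2 fold change 2.32) and Elane (59.5 ± 3.27 and 256 ± 9.32, 2.09), which are also in the promyelocyte list, and Mmp9 (0.25, adjusted p = 0.0224). Mmp9 lost its call without WT replicate 1 (adjusted p = 0.0569), WT replicate 2 (0.0847), WT replicate 3 (0.0680) or PGRN KO replicate 5 (0.0511). Lgmn, a lysosomal endopeptidase that cuts progranulin into granulins, stood at 76.2, 68.3 and 67.3 FPKM in WT and at 31.8, 30.7 and 32.2 in PGRN KO. All PGRN KO libraries were thus below the WT libraries by a wide margin (44.7% of WT, log2 fold change -1.13, standard error 0.058, adjusted p = 0.000151). Mmp14, a membrane metalloprotease, fell from 28.1 ± 0.851 to 16.5 ± 1.68 FPKM (log2 fold change -0.74, adjusted p = 0.00169). Slpi, the inhibitor that shields progranulin from elastase, was also lower (1221 ± 25.3 and 953.7 ± 30.2 FPKM, -0.36, adjusted p = 0.00302), as were the cathepsin genes Ctsb (-0.40), Ctss (-0.40) and Ctsd (-0.21), of which Ctsd lost its call with quantile normalization, plain totals and voom (adjusted p 0.114 to 0.157) and without WT replicate 1 (0.0570) or WT replicate 2 (0.0679). The log2 fold change of Ctsl was 0.024 (adjusted p = 0.778).

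Among relatives of sortilin and of LRP1, 1 of 9 tested genes was higher, 1 lower and 7 not past the threshold (2 of 9, near the 17.9% of all genes, median -0.12), and with plain totals or voom the lower one was lost. Sorl1, a sorting receptor of the same VPS10 family as sortilin, stood at 36.8, 39.4 and 39.2 FPKM in WT and at 45.7, 45.0 and 43.9 in PGRN KO. The groups did not overlap, and Sorl1 was higher in PGRN KO like Sort1 (log2 fold change 0.22, standard error 0.044, adjusted p = 0.0192). Its call was lost without WT replicate 1 (adjusted p = 0.0643), WT replicate 2 (0.0568) or PGRN KO replicate 5 (0.0724). Lrp8, a receptor for reelin, was lower (5.21 ± 0.171 and 4.23 ± 0.155 FPKM, -0.25, adjusted p = 0.0259), and lost its call without any 1 library except PGRN KO replicate 4 (adjusted p up to 0.0976).

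Of 18 genes for mannose 6-phosphate tagging and endosomal sorting, 3 were lower and 15 did not pass as deposited (16.7%, near the 17.9% of all genes), while plain totals gave 3 higher and 0 lower (20.8% of all genes) and voom 4 higher and 2 lower (28.6% of all genes), so no direction can be given for the list (median -0.07 as deposited). The 3 lower genes were Vps26a (-0.32, adjusted p = 0.0143) of the retromer, which returns sorting receptors to the Golgi, and the AP-1 adaptor subunits Ap1g1 (-0.29, adjusted p = 0.0130) and Ap1m1 (-0.22, adjusted p = 0.0361). Without WT replicate 2 or PGRN KO replicate 5, Vps26a (adjusted p 0.0601 and 0.0524) and Ap1g1 (0.0536 and 0.0535) lost their calls, and Ap1m1 lost its call without any 1 library except PGRN KO replicate 6 (up to 0.108).

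Among 12 enzymes and activators of sphingolipid breakdown, most of which depend on saposins, 3 were lower and 9 did not pass as deposited (17.9% of all genes called), with a median of 0.0037, while plain totals gave 1 higher and 1 lower (14.5% and 6.29% of all genes) and voom 3 higher and 1 lower (20.2% and 8.46%). Gla, the alpha-galactosidase gene, fell from 142.7 ± 5.77 to 109.6 ± 4.52 FPKM (log2 fold change -0.38, adjusted p = 0.00424) and passed in all 15 alternatives. Hexa, which codes for a subunit of beta-hexosaminidase, was lower as deposited (-0.26, adjusted p = 0.0141) and lost its call with quantile normalization, plain totals and voom.

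For TNF, the adaptors of its receptors and related ligands and receptors, 4 of 14 tested genes were lower, 0 higher and 10 not past the threshold (9.95% of all genes lower and 7.94% higher, median -0.14), while plain totals gave 1 higher and 2 lower (14.5% and 6.29% of all genes) and voom 2 higher and 2 lower (20.2% and 8.46%). Tnf itself stood at 1263, 1277 and 1263 FPKM in WT and at 1480, 1147 and 1186 in PGRN KO, with overlapping groups (log2 fold change -0.0057, adjusted p = 0.976). Tnfaip3, which codes for the inhibitory enzyme A20, stood at 212, 223 and 233 FPKM in WT and at 182, 144 and 144 in PGRN KO (-0.51, standard error 0.097, adjusted p = 0.0144). The groups did not overlap, but the call was lost without WT replicate 2 (adjusted p = 0.0540), WT replicate 3 (0.0512) or PGRN KO replicate 5 (0.0572). Adam17, the protease that sheds TNF and both of its receptors (-0.25, adjusted p = 0.0216), and Birc3 (-0.25, adjusted p = 0.0427) were lower as deposited and lost their calls with plain totals and voom, and without any 1 library except PGRN KO replicate 6 (Adam17, adjusted p up to 0.0805) or WT replicate 1 (Birc3, up to 0.137). The fourth was Tnfsf15, the gene of a related ligand and not of one for the 2 TNF receptors above, at a mean under 1 FPKM in either genotype (-0.48, adjusted p = 0.0206), which lost its call without WT replicate 2 or 3 or PGRN KO replicate 4 or 5 (adjusted p 0.0526 to 0.0759).

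Of 5 relatives of TMEM106B, GPNMB and prosaposin, 3 could be tested, of which 1 was lower and 2 did not pass (17.9% of all genes called, median 0.20). The lower one was Tmem106a, a paralogue of Tmem106b, at 12.3, 13.4 and 14.6 FPKM in WT against 7.95, 7.72 and 8.51 in PGRN KO. All PGRN KO libraries were below all WT libraries (log2 fold change -0.67, standard error 0.073, adjusted p = 0.00219), and the call was kept in all 15 alternatives. CACGTG, held by 7.15% of all windows, was found in those of 4 of 9 matched genes of the protease list (Ctsd, Ctsl, Lgmn and Slpi), 1 of 8 receptor relatives (Sorl1), 5 of 15 tagging and sorting genes, 3 of 9 sphingolipid genes (Arsa, Gla and Glb1), 1 of 14 TNF genes (Tnfaip3) and 0 of 4 genes of this last list. A gene was counted if any of its windows matched, so these counts of genes are not on the scale of the share of windows.

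**Figure D4:**
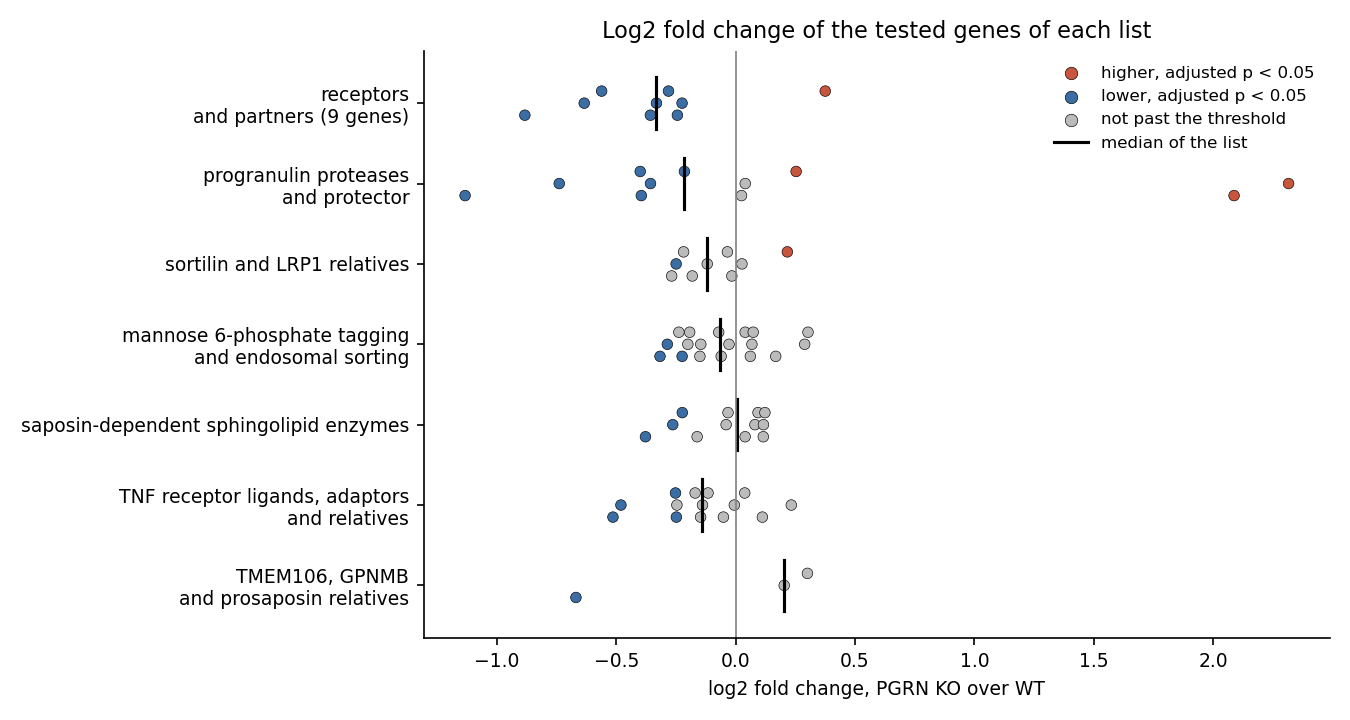
Log2 fold change (PGRN KO over WT, deposited scaling) of the tested genes of each list, with 1 point per gene coloured by its call and a black bar at the median. The 9 receptors and partners and the protease list hold the most calls, and in the other lists most genes are grey.

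The genes whose levels followed Grn and Psap most closely were taken from the 3481 genes with a mean of at least 10 FPKM, by Pearson's r of log2 values over the 6 libraries. These r describe 6 points that share libraries and fall into 2 clusters by genotype. For Grn they were Nrros (r = 0.9999), Itm2c (0.9991), Rasa3 (0.9985), Arfgef2 (0.9983) and Cd300lf (0.9983). Nrros, a negative regulator of reactive oxygen species, stood at 103, 102 and 102 FPKM in WT and at 63.7, 62.9 and 65.5 in PGRN KO. PGRN KO replicate 6 was the highest of its group for Nrros as it was for Grn. For Psap the closest were Lgmn (0.9985), Gpnmb (0.9984), Gm5526 (0.9981), Sdc3 (0.9976) and Clec4a3 (0.9951). Lgmn, Gpnmb and Psap were each highest in WT replicate 1 and lowest, within PGRN KO, in replicate 5, although Psap differed little there (759 to 763 FPKM). Genes picked by r over these same libraries tend to share such an order, Nrros included, so it is no separate result. Gm5526 is annotated as a processed pseudogene, so its value (71.3 FPKM in WT against 34.7 in PGRN KO) may include reads of a near-identical gene and is uncertain.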

How the data were processed

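Bone marrow neutrophils stimulated with Candida albicans were sequenced as poly-A mRNA in 3 WT and 3 PGRN KO libraries, grouped by the genotype in their labels, and all 6 were used. The authors deposited FPKM values of 54532 genes. The submitters' processing notes name HISAT2 2.0.5, featureCounts 1.5.0-p3 and the build mm10 (GRCm38), where the paper names HISAT and HTSeq, and neither gives the annotation release. GENCODE M21 holds 54409 of the gene identifiers, 53499 of them with the same start and end. FPKM times gene length gave whole fragments within 0.05 for all values, and thus 17087344 to 18821091 fragments per library, whose number limits the precision of low values.

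From the deposited FPKM, log2(FPKM + 1) was compared with limma 3.58.1 in R 4.3.3 (lmFit, eBayes with trend, two-sided) over the 14807 genes that averaged at least 0.1 FPKM, with Benjamini-Hochberg adjustment over all of them and a threshold of 0.05. Exact permutation tests compared ratios (Python 3.11.15, scipy 1.17.1). On simulated data with 50 genes at each fold among 14807, limma called 39 changed 4-fold, 31 changed 2-fold, 20 changed 1.5-fold and 0 changed 1.2-fold, with 6 false calls among 96. The simulation used the same spread setting for every gene. With so few changed genes its threshold was stricter than in the real data, where 17.9% were called, so these counts do not give the power there. The 10 genes and the 6 lists of related genes were chosen with earlier results of these data known. Named are all 10 genes, up to 4 called genes per list with the largest log2 fold change and a mean of at least 1 FPKM, and the 5 genes most like Grn and Psap by Pearson's r. Mmp9, Ctsb, Ctsd, Ctss, Ctsl, Slpi, Tnf, Tnfsf15 and the markers were named beside these after their values were seen, and their alternatives were added after seeing the data. The alternatives were 2 pseudocounts, 2 filters, 3 scalings, robust eBayes, voom on fragments (with plain totals as library sizes) and each library left out. Some members of the lists are not reported here by name.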

Additional observations from a re-analysis of the deposited data

How the results depend on the processing

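The 10 genes kept their direction in all 150 values (10 genes under 15 alternatives), of which 126 stayed on their side of the threshold and 24 lost the call. As their groups did not overlap, only quantile normalization, plain totals and voom could have turned a direction. The calls lost to a setting were Igf2r with plain totals (-0.17), Tnfrsf1a without a filter (-0.22), with quantile normalization (-0.11), plain totals (-0.11) and voom (-0.11), Tnfrsf1b with quantile normalization (-0.19), and Tmem106b without a filter (-0.24), with plain totals (-0.15) and voom (-0.19). Leaving out 1 library gave -0.32 to -0.23 for Igf2r, -0.27 to -0.18 for Tnfrsf1a and -0.27 to -0.21 for Tmem106b. The genes called over the whole table numbered 2648 as reported (44.4% higher), 4236 with voom (70.4% higher), 3080 with plain totals (69.7% higher), and 1385 (without PGRN KO replicate 5) to 2229 with 1 library left out, with 1456 without WT replicate 2, 1682 without WT replicate 1 and 1749 without WT replicate 3. The calls among receptor relatives fell from 2 to 1 with plain totals and 1 with voom, and were 0 to 2 with 1 library left out (0 without WT replicate 1, WT replicate 2 or PGRN KO replicate 5). The tagging and sorting list had 3 calls, 6 with a mean FPKM of at least 1, 6 with voom and 0 to 4 without 1 library (0 without WT replicate 2 or PGRN KO replicate 5). The sphingolipid list had 3 calls and 1 with quantile normalization. The TNF list had 4 calls and 0 to 3 without 1 library (0 without WT replicate 2 or 3, 1 without PGRN KO replicate 5), and the TMEM106 list had 1 call and 1 to 2 (2 without PGRN KO replicate 6). Of 240 values of the 16 named list genes 50 lost the call and 0 reversed. The groups did not overlap for these genes either, so only the same settings could have reversed a value. Of the genes that did not pass the test, Tnf turned from -0.0057 to 0.054 with quantile normalization, 0.11 with plain totals and 0.11 with voom (-0.12 to 0.064 without 1 library), Adgre1 to 0.024 with plain totals and 0.025 with voom, and Ctsl ranged from -0.0052 to 0.048 without 1 library. The cause was not tested, other than that fewer libraries leave less precision. The other pseudocounts and robust eBayes changed no call of the 10 genes. Median-of-ratios scaling changed none either, but its factor was 1.00586 in every library, so it nearly repeated the main fit and could hardly change a call. No paired analysis was possible because the replicate numbers 1 to 3 of WT and 4 to 6 of PGRN KO are not shared between the groups.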
